A study of Homo sapiens with 17 samples.

Results

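Collagens are secreted or membrane-bound proteins whose chains wind around each other into a triple helix, and each chain is encoded by a gene of its own. The collagen chain genes described here are all genes whose single symbol in the platform annotation is COL followed by a type number, A and a chain number. These are 42 of the 17958 genes with a value, each read through its brightest probe set, and 1 of them, COL11A2, had several probe sets. By known structure they fall into 11 fibrillar, 6 basement membrane (type IV), 10 FACIT (fibril-associated) and 15 other chains. COL7A1 and COL17A1 are not analysed here.

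RNA came from A549 and H2122, established human lung adenocarcinoma lines, on 17 arrays. Every cell population had been stably transduced with a pBABE retrovirus, selected in 1 µg/mL puromycin for 2 weeks and grown in RPMI1640 with 5% serum. The virus carried wild-type LKB1, the tumour suppressor kinase encoded by STK11, or its kinase-dead mutant K78I, or no insert (pBABE). In A549 and in H2122 each construct had 3 arrays, except that H2122 with pBABE had 2. The design text names both K78I and pBABE as controls, so LKB1 was set against the mean of these control groups with equal weight. The labels do not state whether the replicates of a group are separate cultures, and the tests therefore cover only the variation among these arrays, which may be technical.

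Fibrillar collagens form the cables of connective tissue, type IV collagens form the sheet-like network of basement membranes, and FACIT collagens sit on the surface of fibrils. In the lung most fibrillar collagen is made by fibroblasts, while epithelial and endothelial cells rest on a type IV network to which they themselves contribute. Collagens mature through steps that include prolyl and lysyl hydroxylation, chaperoned folding and, depending on the type, propeptide cleavage and crosslinking. The genes of these steps are given after the chains.

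All levels are log2 expression values as deposited, and a difference of 1 is a doubling. The number of arrays limits the precision, and levels of different genes cannot be compared on this scale. A gene is written as higher, lower or changed where limma's Benjamini-Hochberg adjusted p over all 17958 genes was under 0.05. A gene is called dim where its mean over all arrays lay in the lowest 30% of genes, under 4.83, and 19 of the 42 collagen genes were dim.

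Several arrays touch the results that follow. STK11, the transduced gene, stood in A549 at 6.88, 7.38 and 10.52 with pBABE, at 10.54, 7.14 and 10.42 with K78I, and at 9.42, 10.23 and 9.62 with LKB1, so the arrays labelled pBABE replicate 3 and K78I replicate 2 go against their labels. In H2122 it was 6.22 and 6.33 with pBABE and 11.20 to 11.35 on the K78I and LKB1 arrays. The STK11 difference between LKB1 and control arrays, 0.95 in A549 and 1.99 in H2122, did not pass an exact permutation test. Its two-sided p was 0.464 and 0.339, where 0.0119 and 0.0179 are the smallest that can be reached. Both control groups are pooled in it and K78I carries the transcript, so this test cannot check the labels. In H2122 the source names of pBABE replicate 2, LKB1 replicate 3 and K78I replicate 3 give another construct than their titles. The titles were followed here. The STK11 level of 6.22 on pBABE replicate 2 goes with its title and against its source name, LKB1. That of 11.26 on K78I replicate 3 goes with its title and against its source name, pBABE. For LKB1 replicate 3, whose source name gives K78I, STK11 cannot decide, as both constructs carry the transcript. Where arrays were weighted below, H2122 LKB1 replicate 3 had the largest weight, 5.67, beside 0.37 for each H2122 pBABE array. A549 LKB1 replicate 3 had 3.47. Weighting also raised the number of calls over all genes, as counted at the end. Cell cycle genes were low on H2122 pBABE replicate 2, A549 K78I replicate 2 and A549 pBABE replicate 1, where the mean of 16 such genes lay 1.39, 0.74 and 0.35 log2 units under the mean of the line. Of 8 epithelial markers all 8 were above the dim level in these lines, of 6 lung alveolar markers 2, of 10 fibroblast markers 1, and their summed levels are given where a collagen result moves with them.

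COL4A1 and COL4A2, the chains of the ubiquitous type IV network, rose with LKB1 in both lines, and they lie head to head on chromosome 13. Their starts are separated only by the stretch shown first, on the plus strand of GRCh38.p14 from the RefSeq gene starts, in which COL4A1 is read to the left and COL4A2 to the right. COL4A4 and COL4A3, the other pair that is described below, are arranged alike on chromosome 2, and their shared stretch is shown second in the same orientation, with COL4A4 read to the left. The third stretch is the 250 bases before the start of COL5A1, the other gene that rose in both lines. They are shown because these chains carry the results common to both lines and the contrast between the type IV pairs. Capitals mark GC boxes (GGGCGG, or CCGCCC where it lies on the other strand) and the CCAAT box (either strand).

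COL4A1 to COL4A2, chr13:110307158-110307283, plus strand: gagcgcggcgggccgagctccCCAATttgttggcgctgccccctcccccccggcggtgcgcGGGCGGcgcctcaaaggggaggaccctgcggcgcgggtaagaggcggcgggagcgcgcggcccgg

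COL4A4 to COL4A3, chr2:227164489-227164623, plus strand: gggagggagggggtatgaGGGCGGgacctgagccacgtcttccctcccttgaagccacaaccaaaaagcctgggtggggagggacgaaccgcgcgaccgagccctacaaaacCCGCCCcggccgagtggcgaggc

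COL5A1, chr9:134641553-134641802, plus strand: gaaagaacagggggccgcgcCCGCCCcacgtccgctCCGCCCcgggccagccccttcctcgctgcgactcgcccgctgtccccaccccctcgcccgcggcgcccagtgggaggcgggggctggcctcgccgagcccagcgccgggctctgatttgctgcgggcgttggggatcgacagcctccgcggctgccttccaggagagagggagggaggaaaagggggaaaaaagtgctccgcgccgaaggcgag

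The stretch between COL4A1 and COL4A2 is 126 bases long with 80.2% G and C, and holds 1 GC box and 1 CCAAT box. That between COL4A4 and COL4A3 is 135 bases long with 68.1% G and C, and holds 2 GC boxes and 0 CCAAT boxes. It is bounded by the gene records. The COL4A4 window counted below, chr2:227164156-227164455, lies inside the COL4A4 record, does not reach this stretch and holds 0 GC boxes. The 250 bases before COL5A1 have 74.0% G and C, 2 GC boxes and 0 CCAAT boxes. RefSeq windows of 300 bases around a start (250 before and 50 after) were at hand for 30 of the 42 collagen genes. A GC box on either strand was in a window of 20 of these 30 genes, beside 45.0% of all 35116 windows. CCAAT was found for 11 of the 30 genes and in 34.6% of all windows, and TATAAA for 5 and in 11.5%. The half-site TGACG was found for 8 and in 24.6%, and the E-box CACCTG for 5 and in 20.6%. A gene can have several windows, so counts of genes and shares of windows are not on the same footing. These 30 genes had 42 windows, of which 23 held a GC box, 13 CCAAT, 6 TATAAA, 8 TGACG and 5 CACCTG. A match is only a string of letters. COL1A1, COL6A1 and COL8A1 are among the 12 genes named without a window.

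With LKB1, 7 collagen genes were higher and 0 lower in A549, beside 5.49% of all genes higher and 2.95% lower. In H2122 6 were higher and 1 lower, beside 4.99% and 2.29% of all genes. In both lines COL4A1, COL4A2 and COL5A1 were higher, and these 3 genes are 42.9% of the 7 called genes of each line. Over all genes tested, 324 were called in the same direction in both lines, which is 21.4% of the 1515 calls in A549 and 24.8% of the 1308 in H2122. The other calls were COL1A1, COL4A3, COL6A1 and COL18A1 in A549, and COL27A1, COL12A1, COL8A1 and, downwards, COL25A1 in H2122. The median over all 42 genes was 0.00 in A549 and 0.01 in H2122, beside -0.02 and -0.04 over all genes tested, and 34 of 42 and 35 of 42 moved by less than 0.5. In all, 11 collagen genes were called in at least 1 line and 31 in neither. RNA was taken from whole cultures, so a change in the share of cells that make a chain and a change in RNA per cell cannot be told apart.

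**Figure D1:**
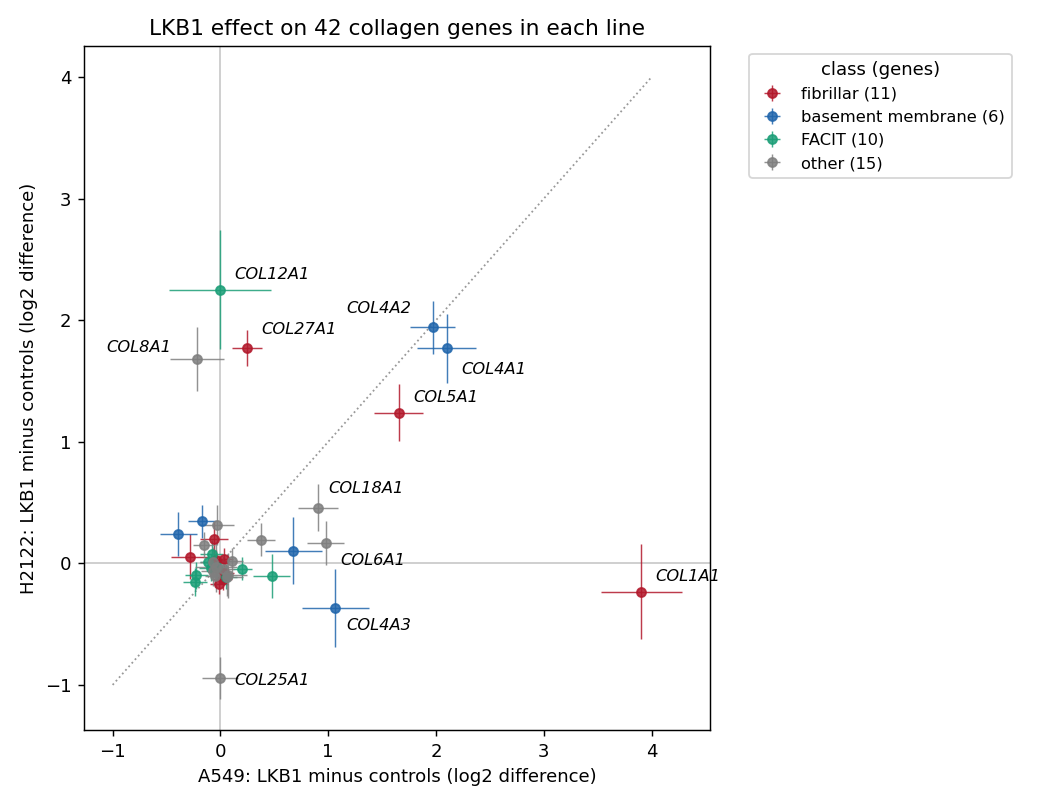
Each of the 42 collagen genes is placed by its log2 difference between LKB1 and controls in A549 (horizontal) and in H2122 (vertical), coloured by class, with bars of 1 SE and the dotted line where both lines are equal. COL4A1, COL4A2 and COL5A1 lie near the dotted line at 1.24 to 2.10 in both lines, COL1A1 lies at 3.90 in A549 and -0.23 in H2122, and COL27A1, COL12A1 and COL8A1 lie at 1.68 to 2.25 in H2122 and near 0 in A549.

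COL4A1 (transcript cluster 7972750) in A549 stood at 5.37, 5.92 and 5.99 with pBABE, at 5.37, 5.35 and 5.29 with K78I, and at 6.89, 8.35 and 7.71 with LKB1. All 3 LKB1 arrays were above all 6 control arrays, with LKB1 replicate 1 nearest to them. The means were 7.65 ± 0.73 with LKB1 (SD, n = 3) and 5.55 ± 0.32 over the controls (SD, n = 6), and the difference of 2.10 ± 0.28 (SE) passed the test (adjusted p = 0.000214).

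In H2122 COL4A1 stood at 6.85 and 5.69 with pBABE, at 6.98, 6.75 and 6.73 with K78I, and at 8.21, 8.57 and 8.16 with LKB1. The groups did not overlap, and the low control value belongs to pBABE replicate 2. The difference of 1.77 ± 0.29 (SE) passed the test (adjusted p = 0.00128), which is 3.41-fold, beside 4.28-fold in A549.

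COL4A2 (transcript cluster 7970033), the partner of COL4A1 in the same helix, stood in A549 at 6.45, 6.72 and 6.83 with pBABE, at 6.35, 6.38 and 6.10 with K78I, and at 7.92, 8.90 and 8.49 with LKB1. The LKB1 arrays lay above all controls in the same order as for COL4A1. The difference was 1.97 ± 0.21 (SE, adjusted p = 3.96e-05).

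In H2122 COL4A2 stood at 6.95 and 6.04 with pBABE, at 7.45, 7.21 and 6.92 with K78I, and at 8.71, 8.89 and 8.75 with LKB1. Here too pBABE replicate 2 was the lowest array and no groups of LKB1 and control arrays overlapped. The difference was 1.94 ± 0.22 (SE, adjusted p = 6.43e-05). The effects in A549 and H2122 differed by 0.33 ± 0.40 (SE, adjusted p = 0.809) for COL4A1 and by 0.03 ± 0.30 (SE, adjusted p = 0.985) for COL4A2, which does not show that they are equal.

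COL4A1 and COL4A2 followed each other array by array, with a Pearson r of 0.993 over 9 A549 arrays and 0.989 over 8 H2122 arrays (Spearman 0.983 and 0.952). In A549 and H2122 the Pearson r was 0.826 and 0.825 for COL6A1 with COL6A2, and 0.43 and 0.897 for COL4A5 with COL4A6. For COL1A1 with COL1A2, COL5A1 with COL5A2, and COL8A1 with COL8A2 it ran from -0.649 to 0.356. These are descriptions, since arrays of a line share the LKB1 difference, and no p is given. COL4A1 and COL4A2 were also higher with LKB1 against K78I alone and against pBABE alone, comparisons that share the LKB1 arrays. Against K78I alone 6 collagen genes were called in A549 and 6 in H2122 (beside 5.25% and 3.89% of all genes), and against pBABE alone 6 and 7 (beside 5.5% and 5.77%). Against K78I the H2122 differences were 1.49 for COL4A1 and 1.59 for COL4A2 (adjusted p = 0.0151 and 0.00168).

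COL4A3, a chain of the specialised type IV network of kidney glomerulus, lung alveolus and inner ear, stood in A549 at 7.68, 6.76 and 6.41 with pBABE, at 6.37, 7.36 and 7.32 with K78I, and at 8.64, 7.20 and 8.30 with LKB1. LKB1 replicate 2 lay among the controls, and pBABE replicate 1 was the highest control, so the groups overlapped. The difference of 1.07 ± 0.31 (SE) passed narrowly (adjusted p = 0.0472), and it did not pass in 19 of 30 alternatives. Without LKB1 replicate 1 it was 0.77 (adjusted p = 0.26), and against K78I alone or pBABE alone the adjusted p was 0.12 and 0.098. In H2122 COL4A3 was 4.83 to 5.52 on the controls and 4.69 to 4.78 with LKB1, and its difference was -0.37 (adjusted p = 0.631), and the difference between the lines was 1.43 ± 0.45 (SE, adjusted p = 0.111). That difference passed without A549 LKB1 replicate 2 (1.86, adjusted p = 0.026), without A549 pBABE replicate 1 (1.62, adjusted p = 0.0486) and with arrays weighted (1.58, adjusted p = 0.00949). The summed level of the 6 lung alveolar markers in A549 was 7.19 to 7.60 on the controls and 7.71 to 7.94 with LKB1. Only 1 of the 6, ABCA3, was called there, their median difference was 0.08, and 2 lay above the dim level. The part of these markers in the COL4A3 result was not tested.

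COL4A4, the partner of COL4A3 in the specialised network, stood in A549 at 7.12, 6.84 and 6.13 with pBABE, at 5.94, 6.85 and 6.74 with K78I, and at 7.78, 6.61 and 7.44 with LKB1. The order of the LKB1 arrays was that of COL4A3, with replicate 2 among the controls. The difference of 0.68 ± 0.26 (SE) did not pass (adjusted p = 0.14), but did so without LKB1 replicate 2 (1.01, adjusted p = 0.0362) and with arrays weighted (0.74, adjusted p = 0.0142). Array by array the pair followed each other in A549 (Pearson r 0.953, Spearman 0.95, 9 arrays) and not in H2122 (Pearson r -0.03, Spearman -0.119, 8 arrays), where both genes varied little.

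COL4A5 and COL4A6, X-linked and also head to head, were not called in either line. COL4A5, which joins COL4A3 and COL4A4 in the specialised helix, differed by -0.39 in A549 (adjusted p = 0.191) and 0.24 in H2122 (adjusted p = 0.541). In A549 LKB1 replicate 2 stood at 4.87, under the other 8 arrays at 5.72 to 6.17. COL4A6, found with COL4A5 in some basement membranes, was 3.96 to 4.40 in A549 and 4.57 to 5.47 in H2122, with differences of -0.17 and 0.34 (adjusted p = 0.513 and 0.169). The H2122 difference of COL4A6 passed without K78I replicate 1 (0.44, adjusted p = 0.0288) and with arrays weighted (0.49, adjusted p = 0.0203). By count, 3 of 6 type IV chains were higher in A549 and 2 of 6 in H2122, with medians of 0.87 and 0.29.

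**Figure D2:**
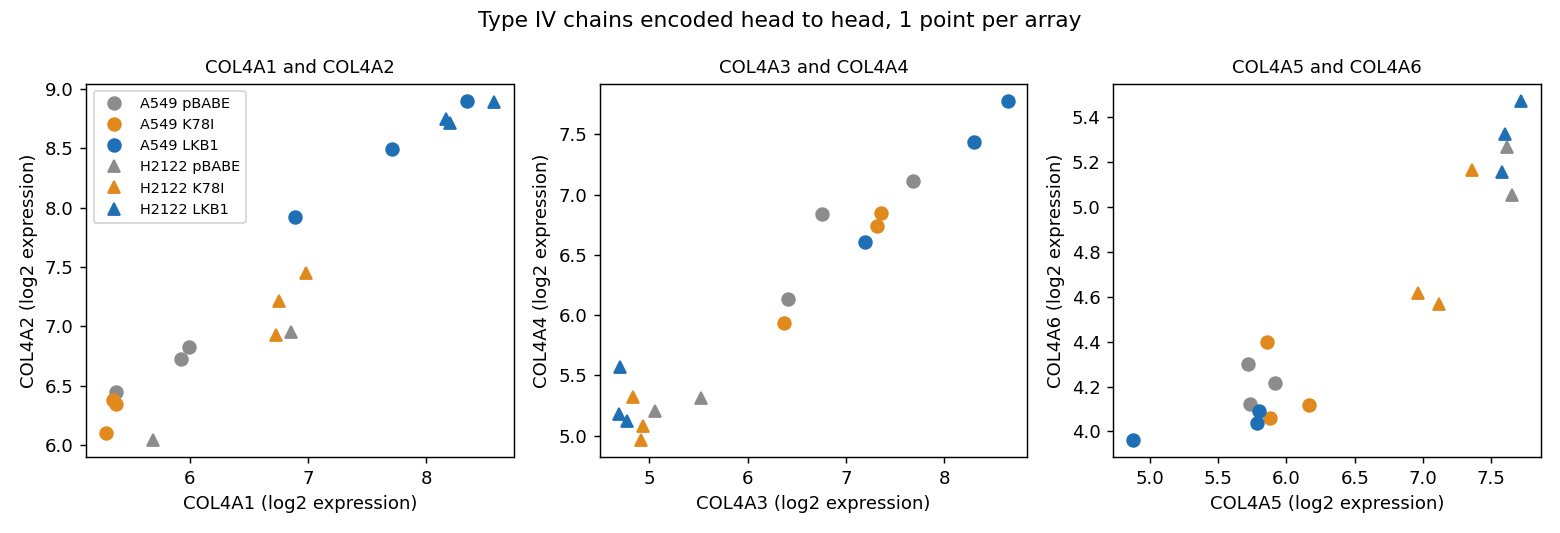
The log2 level of each chain of the 3 head-to-head type IV pairs is plotted against that of its partner, 1 point per array, with colour for the construct and marker shape for the line. Within each cell line COL4A1 and COL4A2 rise together, with its LKB1 arrays above its controls, and the cell lines are offset from each other, COL4A3 and COL4A4 do so in A549 without a separation of LKB1 from controls, and COL4A5 and COL4A6 show little movement with LKB1.

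COL1A1 (transcript cluster 8016646), the main chain of type I collagen, the most abundant fibril of connective tissue, had the largest difference of any collagen gene in either line. In A549 it stood at 5.71, 6.18 and 7.81 with pBABE, at 6.77, 5.59 and 6.86 with K78I, and at 10.02, 10.78 and 10.36 with LKB1. The lowest LKB1 array was more than 2 log2 units above the highest control, pBABE replicate 3, which is 1 of the arrays whose STK11 level is at odds with its label. The means were 10.39 ± 0.38 with LKB1 (SD, n = 3) and 6.49 ± 0.83 over the controls (SD, n = 6). The difference of 3.90 ± 0.38 (SE), 15-fold, passed the test (adjusted p = 1.52e-05), and it stayed between 3.69 and 4.21 when any single array was left out.

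In H2122 COL1A1 stood at 7.49 and 7.72 with pBABE, at 6.85, 7.16 and 7.16 with K78I, and at 6.84, 7.47 and 6.97 with LKB1. The LKB1 arrays lay among the controls, and the difference of -0.23 did not pass (adjusted p = 0.846). Its sign was not stable, being 0.19 with groups taken from the source names and 0.04 against K78I alone. The effect in A549 exceeded that in H2122 by 4.14 ± 0.54 (SE, adjusted p = 0.000686).

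COL1A2, whose product joins 2 chains from COL1A1 in the usual type I helix, was dim. It was 4.22 to 4.45 in A549 and 4.26 to 4.51 in H2122, with differences of 0.04 and -0.08 (adjusted p = 0.882 and 0.734). COL3A1, the chain of type III fibrils that accompany type I, was also dim at 4.39 to 4.61 in A549, with a difference of 0.02 (adjusted p = 0.931). In H2122 COL3A1 differed by -0.13 (adjusted p = 0.53), so neither COL1A2 nor COL3A1 passed the test in either line.

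COL5A1 (transcript cluster 8159142), the chain of type V collagen that starts and limits the diameter of type I fibrils, stood in A549 at 4.60, 4.51 and 4.82 with pBABE, at 4.88, 4.31 and 4.49 with K78I, and at 5.57, 6.77 and 6.43 with LKB1. All LKB1 arrays were above all controls, which lay close to the dim level. The difference was 1.65 ± 0.23 (SE, adjusted p = 0.000321).

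In H2122 COL5A1 stood at 5.00 and 4.60 with pBABE, at 4.89, 5.14 and 4.86 with K78I, and at 5.93, 6.56 and 5.87 with LKB1, again without overlap. The difference was 1.24 ± 0.24 (SE, adjusted p = 0.00421), and without the 3 arrays with conflicting names its adjusted p was 0.071. The effects in the lines differed by 0.41 ± 0.33 (SE, adjusted p = 0.659). Its partner chains did not pass, COL5A2 with -0.28 in A549 and 0.06 in H2122 (adjusted p = 0.397 and 0.93), and COL5A3 with -0.04 and -0.03 (adjusted p = 0.861 and 0.928).

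COL27A1 (transcript cluster 8157383), a fibrillar chain known from cartilage, was higher with LKB1 in H2122. There it stood at 5.53 and 5.50 with pBABE, at 6.19, 5.93 and 5.87 with K78I, and at 7.40, 7.45 and 7.73 with LKB1. The LKB1 arrays were close together and more than 1 log2 unit above the highest control. The difference was 1.77 ± 0.15 (SE, adjusted p = 5.45e-06).

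In A549 COL27A1 stood at 6.35, 6.49 and 6.53 with pBABE, at 6.66, 6.06 and 6.18 with K78I, and at 6.45, 6.92 and 6.51 with LKB1, so the groups overlapped. The difference was 0.25 (adjusted p = 0.348). The effect in A549 was 1.52 ± 0.21 (SE) less than in H2122 (adjusted p = 0.00086). The other 6 fibrillar genes, COL2A1, COL11A1, COL11A2, COL24A1, COL3A1 and COL5A3, did not pass in either line, with differences from -0.17 to 0.20.

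COL12A1 (transcript cluster 8127563), a FACIT chain that binds to type I fibrils, was the only 1 of 10 FACIT genes called in H2122, and 0 of 10 were called in A549. In H2122 it stood at 8.89 and 5.77 with pBABE, at 9.30, 8.46 and 9.16 with K78I, and at 10.52, 9.88 and 10.80 with LKB1. All LKB1 arrays were above all controls, and pBABE replicate 2 stood far below every other array. The difference was 2.25 ± 0.49 (SE, adjusted p = 0.0102), and 1.47 (adjusted p = 0.0063) without that array.

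Against K78I alone the COL12A1 difference in H2122 was 1.43 and did not pass (adjusted p = 0.186, and 0.00975 where pBABE replicate 2 was left out of the fit), while against pBABE alone it was 3.07 (adjusted p = 0.00665). It was 2.05 (adjusted p = 0.0631) without LKB1 replicate 3 and 3.03 without pBABE replicate 1. Leaving out the 3 arrays with conflicting names gave 1.31 (adjusted p = 0.0584), and grouping by the source names gave -0.55. In A549 COL12A1 stood at 8.52, 7.86 and 8.45 with pBABE, at 8.48, 9.14 and 9.19 with K78I, and at 8.83, 8.33 and 8.65 with LKB1, a difference of 0.00 (adjusted p = 0.997). The difference between the lines, -2.25 ± 0.68 (SE), did not pass (adjusted p = 0.097), but did so without H2122 pBABE replicate 1 (-3.03, adjusted p = 0.000581) and with arrays weighted (-2.43, adjusted p = 0.0033). It was -1.47 (adjusted p = 0.0508) without H2122 pBABE replicate 2.

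The other 9 FACIT genes moved by -0.23 to 0.48 in A549 and by -0.16 to 0.08 in H2122. The type IX chains of cartilage, COL9A1, COL9A2 and COL9A3, differed by -0.11, -0.23 and -0.23 in A549 (adjusted p = 0.433, 0.234 and 0.235) and by 0.01, -0.10 and -0.16 in H2122. COL21A1, which was dim, had the value of 0.48 in A549 (adjusted p = 0.108). It passed without A549 K78I replicate 1 (0.57, adjusted p = 0.0402) and with arrays weighted (0.48, adjusted p = 0.00587). COL22A1 passed in A549 with arrays weighted (0.22, adjusted p = 0.0425). The FACIT medians were -0.06 in A549 and -0.04 in H2122.

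COL6A1 (transcript cluster 8069269), a chain of the beaded filaments that surround cells, was higher in A549. It stood there at 5.96, 6.01 and 6.01 with pBABE, at 6.15, 5.58 and 6.22 with K78I, and at 6.90, 7.27 and 6.72 with LKB1, without overlap. The difference was 0.97 ± 0.17 (SE, adjusted p = 0.00228).

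In H2122 COL6A1 stood at 6.18 and 6.77 with pBABE, at 6.28, 6.27 and 5.85 with K78I, and at 6.29, 6.55 and 6.57 with LKB1, and its difference was 0.17 (adjusted p = 0.721). The groups overlapped there, and the difference between the lines did not pass (0.81 ± 0.25, SE, adjusted p = 0.103), but did so without H2122 pBABE replicate 1 (0.96, adjusted p = 0.0368). COL6A2, its partner and its neighbour on chromosome 21, stood in A549 at 5.73, 5.66 and 6.03 with pBABE, at 6.15, 5.85 and 5.94 with K78I, and at 6.21, 6.50 and 6.10 with LKB1. LKB1 replicate 3 lay among the controls, and the difference of 0.38 did not pass (adjusted p = 0.0867), but did so without pBABE replicate 3 (0.43, adjusted p = 0.047) and with arrays weighted (0.33, adjusted p = 0.0305). COL6A3, the large chain that completes the helix, was dim at 3.97 to 4.27 in A549, with a difference of 0.02 (adjusted p = 0.946).

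COL18A1 (transcript cluster 8069208), a basement membrane component whose end fragment is endostatin, was higher in A549. It stood at 6.23, 6.32 and 6.71 with pBABE, at 6.86, 6.18 and 6.58 with K78I, and at 7.10, 7.52 and 7.53 with LKB1. The lowest LKB1 array was just above the highest control, K78I replicate 1. The difference was 0.90 ± 0.19 (SE, adjusted p = 0.00673), and without LKB1 replicate 3 it was 0.83 (adjusted p = 0.0531).

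In H2122 COL18A1 stood at 6.01 and 6.44 with pBABE, at 6.55, 6.32 and 6.04 with K78I, and at 6.38, 6.98 and 6.80 with LKB1. LKB1 replicate 1 lay among the controls, and the difference of 0.46 ± 0.19 (SE) did not pass (adjusted p = 0.205), but did so with arrays weighted (0.55, adjusted p = 0.0487). The effects in the lines were not shown to differ (0.45 ± 0.27, SE, adjusted p = 0.501). COL15A1, the other chain of its subfamily, was dim and differed by -0.07 in A549 and -0.06 in H2122.

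COL8A1 (transcript cluster 8081235), a short chain that forms hexagonal networks beneath endothelia, was dim over all arrays and higher with LKB1 in H2122. There it stood at 5.26 and 3.77 with pBABE, at 5.19, 4.47 and 4.34 with K78I, and at 6.18, 6.16 and 6.47 with LKB1. All LKB1 arrays were above all controls and above the dim level, and pBABE replicate 2 was again the lowest array. The difference was 1.68 ± 0.26 (SE, adjusted p = 0.000955).

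In A549 COL8A1 was at 3.31, 3.19 and 3.48 with pBABE, at 3.35, 3.25 and 2.90 with K78I, and at 3.09, 3.03 and 2.96 with LKB1, all within the dim range. The difference there was -0.22 (adjusted p = 0.694), and the effect was 1.90 ± 0.36 (SE) less than in H2122 (adjusted p = 0.0087). COL8A2, its partner chain, differed by -0.07 in A549 and 0.01 in H2122 (adjusted p = 0.824 and 0.984).

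COL25A1 (transcript cluster 8102263), a transmembrane collagen known from neurons and motor innervation, was the only collagen gene that was lower with LKB1. In H2122 it stood at 5.70 and 5.56 with pBABE, at 5.07, 5.41 and 6.03 with K78I, and at 4.55, 4.73 and 4.58 with LKB1. All LKB1 arrays were below all controls and under the dim level of 4.83. The difference was -0.95 ± 0.17 (SE, adjusted p = 0.003).

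In A549 COL25A1 was 4.07 to 4.64 on all arrays, under the dim level, with a difference of 0.00 (adjusted p = 0.996). The difference between the lines, 0.94 ± 0.24 (SE), passed narrowly (adjusted p = 0.0416) and did not pass in 21 of 28 alternatives. The other chains outside the fibrillar, type IV and FACIT classes did not pass. COL28A1, which was 4.15 to 4.63 in A549 and 5.52 to 6.35 in H2122, differed by 0.32 in H2122 (adjusted p = 0.323) and by 0.50 (adjusted p = 0.0418) once the 3 arrays with low cell cycle genes were left out.

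**Figure D3:**
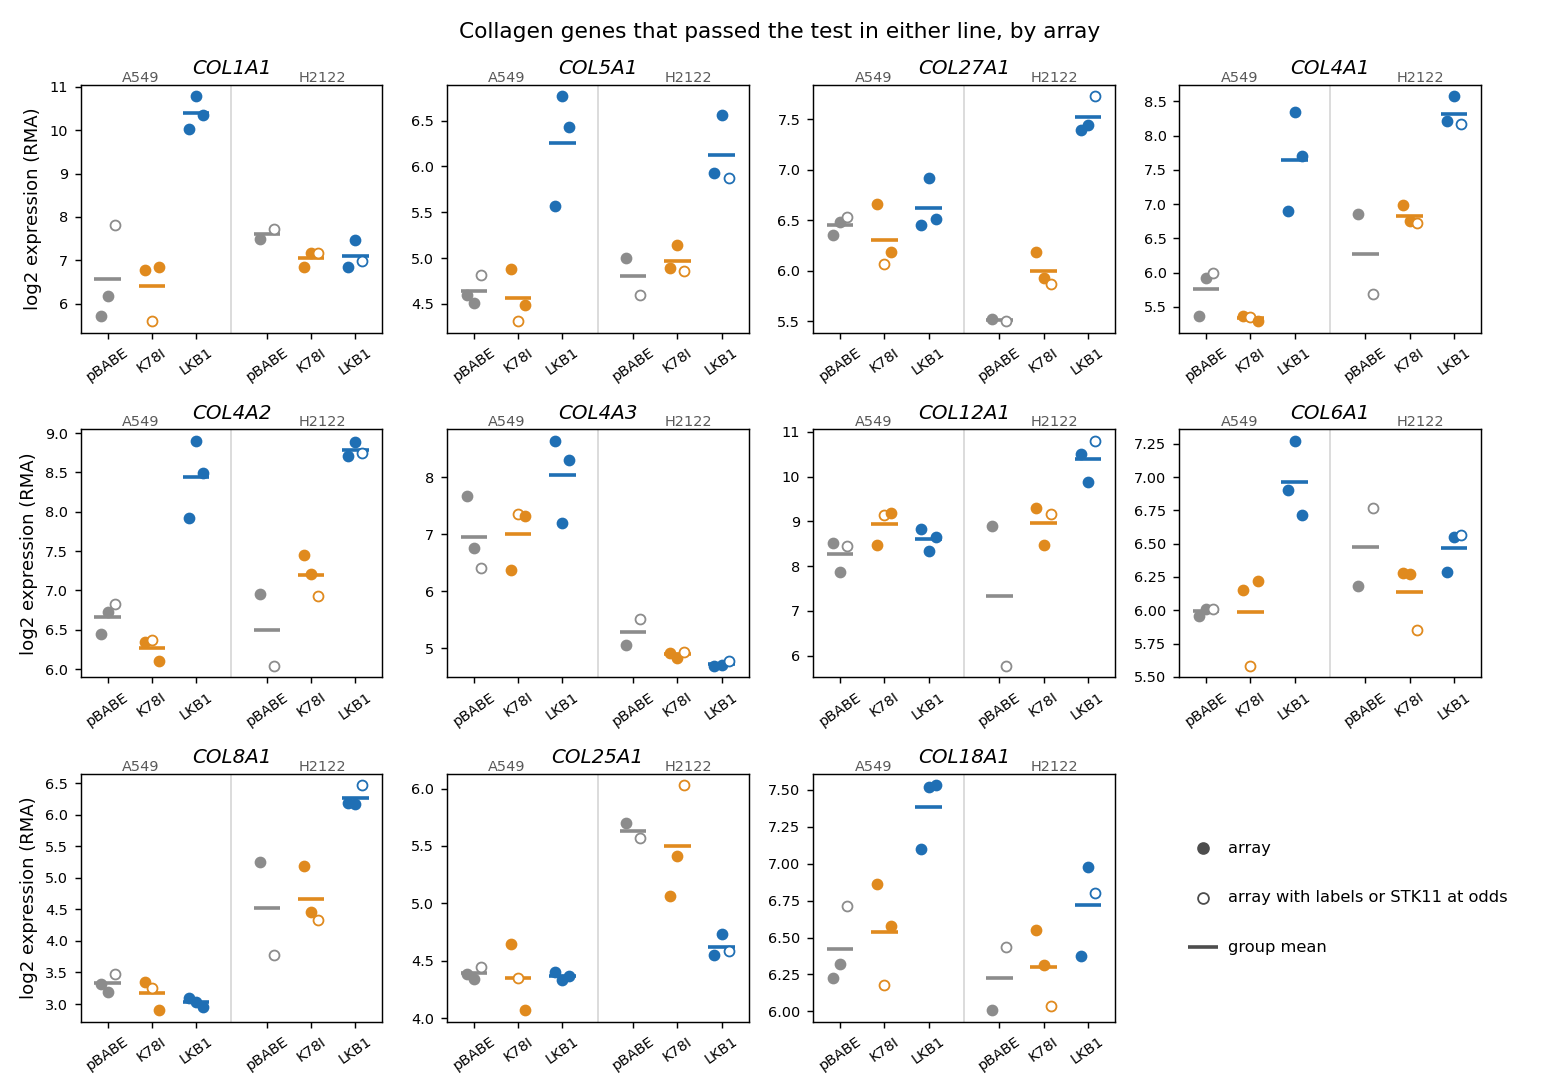
Each panel gives the log2 level of 1 of the 11 collagen genes called in either line on every array, by line and construct, with a bar at the group mean, and open points mark arrays whose source name or STK11 level is at odds with the title. The LKB1 arrays of COL4A1, COL4A2 and COL5A1 stand above the controls in both lines, those of COL1A1 in A549 only, and in H2122 they stand below the controls for COL25A1 and, by a small margin, for COL4A3.

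By class, 2 of 11 fibrillar chains were higher in A549 (COL1A1 and COL5A1) and 2 in H2122 (COL5A1 and COL27A1), with class medians of 0.02 and 0.03. Of the 15 other chains 2 were higher in A549, and in H2122 1 was higher and 1 lower, with medians of 0.00 and 0.01. Without any test, the groups can also be set against each other array by array. In A549 all LKB1 arrays were above all controls for 6 of the 42 genes and below for 0, beside 8.46% and 6.65% of all genes. In H2122 this held for 6 above and 2 below (COL25A1 and COL4A3), beside 8.54% and 8.82% of all genes. Of the 19 dim genes 17 were called in neither line, and of the 23 others 14 were not called.

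**Figure D4:**
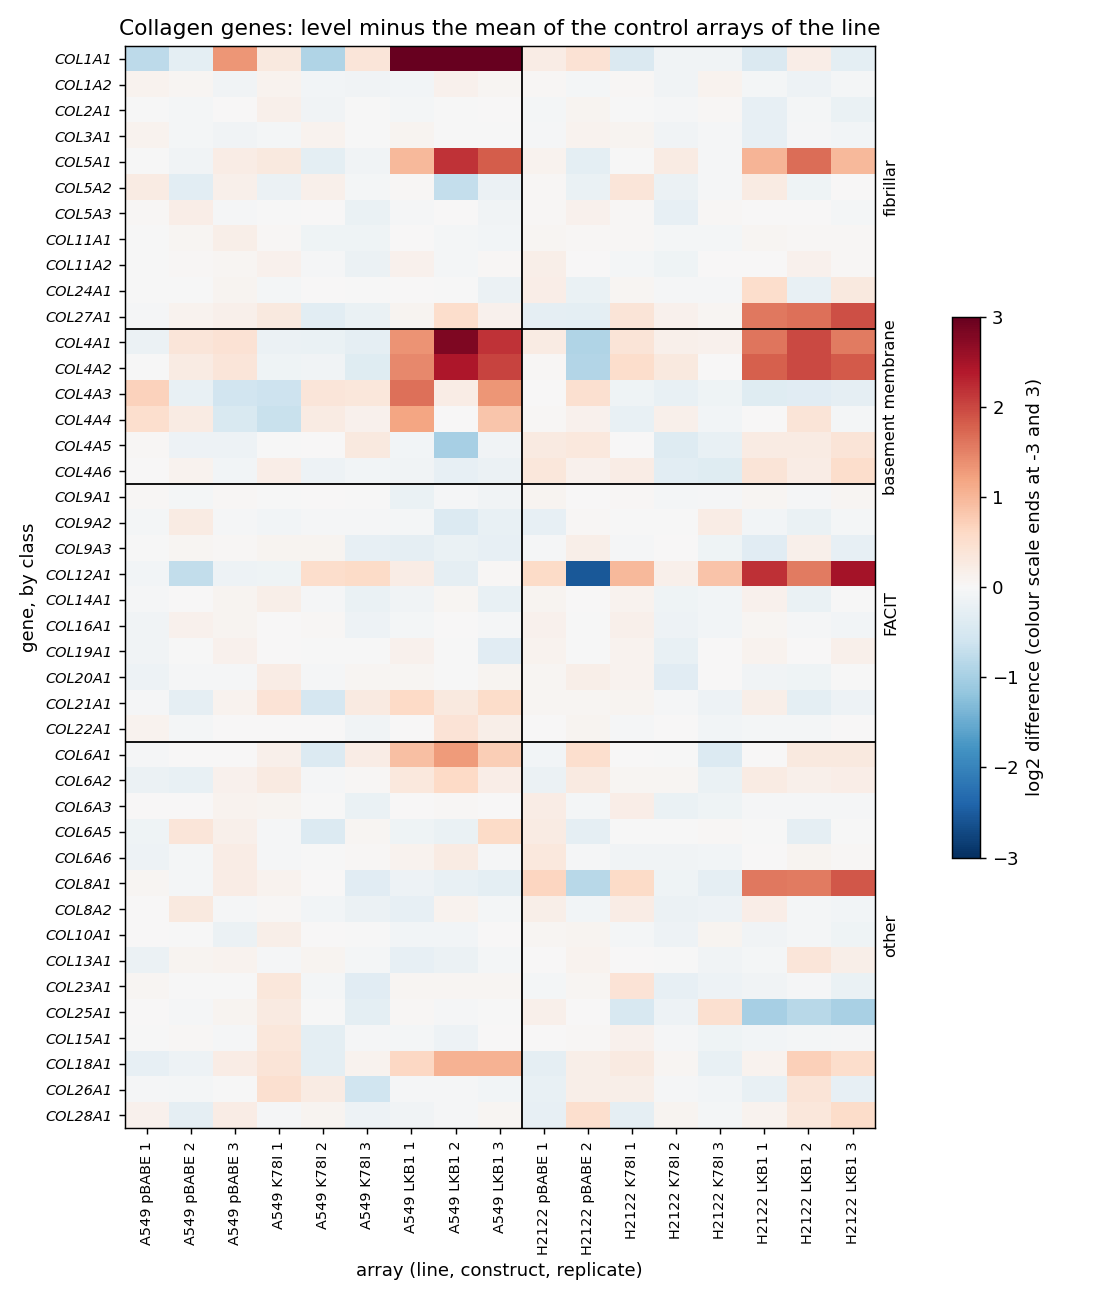
Rows are the 42 collagen genes by class, columns are the 17 arrays by line, construct and replicate, and colour is the log2 level minus the mean of the control arrays of the same line, with the scale ending at -3 and 3. The deepest red of the LKB1 columns is in COL1A1, COL4A1, COL4A2 and COL5A1 in A549 and in COL12A1, COL4A1, COL4A2, COL27A1 and COL8A1 in H2122, and the deepest blue is COL12A1 on H2122 pBABE replicate 2.

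In the difference between lines (A549 effect minus H2122 effect) 4 collagen genes were called, beside 3.6% of all genes. It was positive for 2, COL1A1 with its rise in A549 and COL25A1 with its fall in H2122, and negative for 2, COL27A1 and COL8A1 with their rise in H2122. Over the mean of both lines 9 were higher and 1 lower, beside 8.25% and 5.32% of all genes. COL4A2 had the lowest adjusted p there (1.95 ± 0.15, SE, adjusted p = 1.88e-06), followed by COL27A1 (1.01 ± 0.10) and COL4A1 (1.93 ± 0.20). COL12A1 was the weakest, at 1.12 (adjusted p = 0.0399), and turned to -0.28 when arrays were grouped by source name. Against K78I alone it was 0.55 (adjusted p = 0.454), without the 3 arrays with conflicting names 0.65 (adjusted p = 0.0701), and without H2122 pBABE replicate 2 it was 0.73 and kept the call (adjusted p = 0.0177). It lost the call as well when any of 9 other single arrays was left out, among them every A549 LKB1 array.

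The kinase-dead protein was compared with the empty vector to see whether LKB1 without its activity moved the collagen genes. None of the 42 was called in A549 or in H2122 by limma, beside 0.0% of all genes in each line, and their largest differences were 0.66 in A549 and 1.64 in H2122, both for COL12A1. The arrays A549 pBABE replicate 3 and K78I replicate 2, whose STK11 levels go against their labels, are in this comparison. Without them 9 genes of all were higher and 26 lower in A549, and 0 of the 42. At an unadjusted p under 0.05 there were 0 of 42 in A549 and 5 of 42 in H2122, beside 2.63% and 7.02% of all genes. The 5 were COL12A1 (1.64), COL4A2 (0.70), COL27A1 (0.48), COL4A6 (-0.38) and COL4A5 (-0.49), with adjusted p from 0.638 to 0.706. Without H2122 pBABE replicate 1, which leaves pBABE replicate 2 as the only pBABE array of the line, COL12A1 (3.21, adjusted p = 0.00061) and COL4A2 (1.15, adjusted p = 0.0334) were called. In that setting 562 of all 17958 genes were higher and 479 lower, 5.8% in all, and the lone pBABE array is assumed to vary like the other groups.

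Of 48 listed genes that modify, export, process, crosslink or bind collagen, 44 had a value. In A549 8 of the 44 were higher with LKB1 and 0 lower, with a median of -0.03, beside 5.49% of all genes higher. In H2122 13 were higher and 0 lower, with a median of 0.22 beside -0.04 over all genes and 4.99% of all genes higher. P4HA2, BMP1, LOXL2 and ITGA2 were among the called genes of both lines.

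Prolyl and lysyl modification, which stabilises the helix, had 2 of 13 genes higher in A549 and 6 of 13 in H2122. P4HA3, a catalytic prolyl hydroxylase subunit, was 1.43 higher in A549 (adjusted p = 4.58e-05), and its effect there exceeded that in H2122 by 1.38 (adjusted p = 0.00328). P4HA2, another such subunit, was 0.65 higher in A549 (adjusted p = 0.0179, and 0.0804, 0.0514 and 0.0823 without LKB1 replicate 1, 2 or 3) and 1.16 higher in H2122 (adjusted p = 0.000425). In H2122 the prolyl 3-hydroxylases P3H1 (0.66, adjusted p = 0.00126) and P3H2 (1.82, adjusted p = 0.00136), which acts on type IV collagen, were also higher.

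Among 9 genes of chaperoning and export 0 were higher in A549 and 1 in H2122, SERPINH1, the collagen chaperone HSP47, at 0.92 (adjusted p = 0.0155). Without LKB1 replicate 3 it was 0.78 (adjusted p = 0.1), and against K78I alone its adjusted p was 0.0876. BMP1, which cleaves the carboxyl propeptide of fibrillar chains, was the only 1 of 8 propeptide processing genes to pass, at 0.83 in A549 (adjusted p = 0.00127) and 1.27 in H2122 (adjusted p = 5.38e-05).

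Of 5 crosslinking genes 2 were higher in each line. LOXL2, a lysyl oxidase that crosslinks type IV collagen, was at 6.48 ± 0.72 on the A549 controls (SD, n = 6) and at 9.57 ± 0.44 with LKB1 (SD, n = 3), without overlap, a difference of 3.10 ± 0.36 (SE, adjusted p = 7.78e-05). In H2122 LOXL2 was 6.05 to 6.92 on the controls and 8.28 to 8.57 with LKB1, a difference of 1.92 ± 0.37 (SE, adjusted p = 0.00468), and without the 3 arrays with conflicting names its adjusted p was 0.0803. For the crosslinkers LOXL4 and PXDN the effect differed between the lines. LOXL4 was higher by 1.37 in A549 (adjusted p = 1.26e-05; difference between lines 1.49, adjusted p = 0.000533). PXDN, the peroxidase that makes the sulfilimine crosslinks of type IV collagen, was higher by 1.55 in H2122 (adjusted p = 0.000308; difference between lines -1.60, adjusted p = 0.00639).

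Of 9 genes of receptors and uptake 3 were higher in each line. ITGA11, the integrin subunit for fibrillar collagen, stood at 3.88 to 4.32 on the A549 controls and at 7.77 to 8.51 with LKB1, a difference of 4.11 ± 0.15 (SE, adjusted p = 5.58e-10). In H2122 ITGA11 was 4.04 to 4.88 on the controls and 4.46 to 4.56 with LKB1, and the effects in the lines differed by 4.0 (adjusted p = 1.63e-07), the same side as for COL1A1. ITGA2, the subunit of the collagen receptor of epithelia and platelets, was 0.86 higher in A549 (adjusted p = 0.0171) and 1.43 in H2122 (adjusted p = 0.000734). In A549 its adjusted p was 0.0721, 0.0588 and 0.0735 without LKB1 replicate 1, 2 or 3, and MRC2, the endocytic collagen receptor, passed narrowly at 0.92 (adjusted p = 0.0415) and did not pass without any single LKB1 array. DDR1, a receptor tyrosine kinase for collagen, was 0.69 higher in H2122 (adjusted p = 0.00658), and ITGB1, the common partner of these integrin subunits, 0.61 (adjusted p = 0.0147, and 0.267 against pBABE alone).

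**Figure D5:**
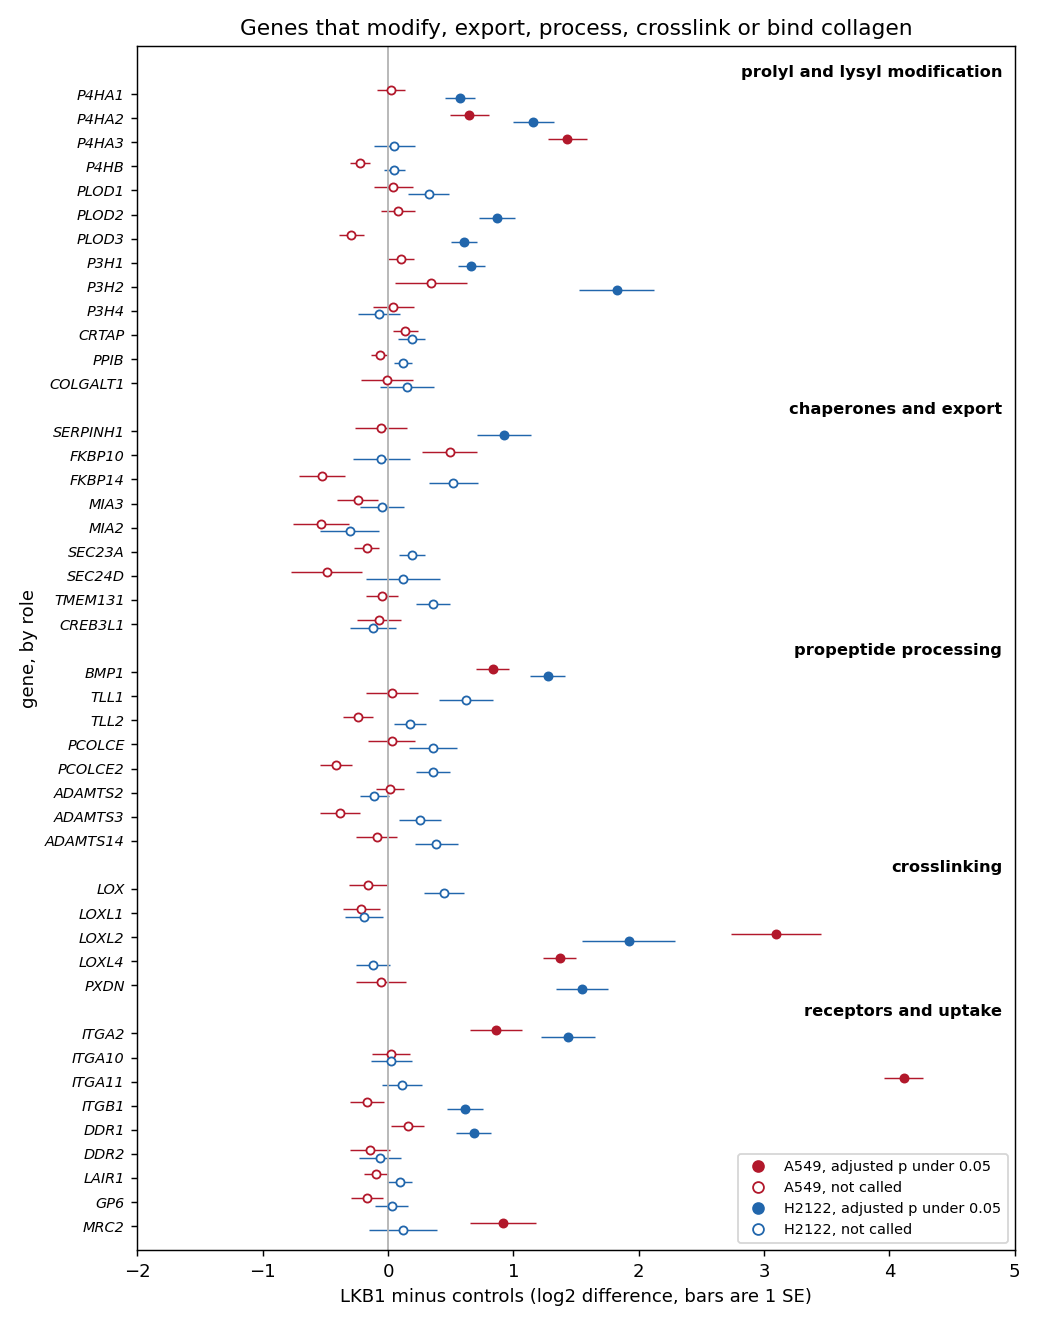
The log2 difference between LKB1 and controls is given for the measured genes of collagen modification, export, processing, crosslinking and binding, in A549 (red) and H2122 (blue), with bars of 1 SE and filled points where the adjusted p was under 0.05. ITGA11 and LOXL2 lie farthest to the right in A549, at 4.11 and 3.10, and P3H2, LOXL2 and PXDN in H2122, at 1.82, 1.92 and 1.55, and no filled point lies to the left of 0.

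Markers of other cell types were read beside these results, and their part in them was not tested. In A549 the summed level of the 10 fibroblast markers was 7.38 to 7.55 on the controls and 7.42 to 7.71 with LKB1, and 1 of the 10, PDGFRA (0.78, adjusted p = 0.0284), was higher with overlapping groups. It did not pass without LKB1 replicate 1 (0.56, adjusted p = 0.186) or replicate 3 (0.68, adjusted p = 0.157). In H2122 it was 7.33 to 7.59 on the controls and 8.12 to 8.75 with LKB1, and 1 of the 10, PDPN, was higher (2.57, adjusted p = 2.5e-05). PDPN, podoplanin, is also known from alveolar epithelium, and it was the only fibroblast marker whose mean was above the dim level, while DCN, LUM, FAP and PDGFRB were dim. The summed leukocyte markers in H2122 were 8.73 to 9.74 on the controls and 10.33 to 10.54 with LKB1, where LAPTM5 was higher (2.94, adjusted p = 0.000142) and PTPRC was 2.83 to 3.28 on all arrays. Of 6 endothelial markers 0 passed in A549 and 1 in H2122, PECAM1, which was lower (-0.79, adjusted p = 0.0116), and of 6 alveolar markers 1 passed in A549, ABCA3 (1.02, adjusted p = 0.0116), and 0 in H2122. PECAM1 did not pass against K78I alone (-0.42, adjusted p = 0.315) or without LKB1 replicate 3 (-0.66, adjusted p = 0.0838), and ABCA3 did not without LKB1 replicate 1 (adjusted p = 0.0708) or replicate 3 (adjusted p = 0.0621). The epithelial sum was 13.90 to 14.59 on all arrays. CDH1 was lower in A549 (-1.17, adjusted p = 0.011), and -0.78 (adjusted p = 0.0677) without LKB1 replicate 2. ELF3 was lower in H2122, but did not pass against K78I alone (-0.56, adjusted p = 0.103) or pBABE alone (-0.71, adjusted p = 0.0502). Without H2122 LKB1 replicate 2 the ELF3 difference was -0.44 (adjusted p = 0.155).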

How the data were processed

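Total RNA from 17 samples was measured on Affymetrix arrays. The authors deposited RMA log2 expression levels. Per the submitters' processing notes, Affymetrix Expression Console 1.1 was the software. This method makes the arrays' distributions alike, so a shift of most genes in 1 direction cannot be seen, and array medians were 5.62 to 5.73. No genome build of the array annotation was used here. Of 33297 probe sets 19181 had 1 gene symbol, 2055 had several and 12061 were not named. Where a gene had more than 1 probe set (895 genes), its brightest was used, giving 17958 genes in all.

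Samples were grouped by title. All 6 groups were fitted together with limma 3.58.1 in R 4.3.3 (lmFit and eBayes, 11 residual and 3.80 prior degrees of freedom) on the deposited log2 values, with no filter on low values. P-values were Benjamini-Hochberg adjusted over 17958 genes, with a threshold of 0.05. STK11 had an exact permutation test within each line. The alternatives left out arrays (each in turn, those with conflicting names, those at odds in STK11, those with low cell cycle genes), took groups from source names, used 1 control group or 1 line alone, dropped dim genes, averaged probe sets, centred arrays, weighted arrays, changed the prior to a robust trended one, or added a replicate block. Promoter stretches and gene starts came from RefSeq tables (GRCh38.p14), and figures were drawn with matplotlib.

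Named with values are all collagen genes called in any comparison, partner chains of a helix and head-to-head type IV neighbours, and up to 3 called pathway genes per list and line with the lowest adjusted p. Other genes named were chosen after their values were seen. The collagen genes, the pathway and marker lists and the alternatives were chosen with earlier results of these data known.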

Additional observations from a re-analysis of the deposited data

Results flagged for a closer look

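In 4 collagen genes the LKB1 effect differed between the lines by the test of the difference itself (limma, adjusted p under 0.05 over all genes). COL1A1 rose by 4.14 log2 units more in A549 than in H2122 (adjusted p = 0.000686), and all 3 A549 LKB1 arrays lay above every control. COL27A1 differed by -1.52 (adjusted p = 0.00086) and COL8A1 by -1.90 (adjusted p = 0.0087), both with the rise in H2122, where all 3 LKB1 arrays lay above the 5 controls. COL25A1 differed by 0.94 (adjusted p = 0.0416), with a fall in H2122 and levels under the dim level on every A549 array. No group held 4 arrays or more, so single arrays far from their group were not searched for.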

How the results depend on the processing

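The counts of called collagen genes were 7 in A549, 7 in H2122, 4 for the difference between lines, 10 for the mean of both lines and 0 for K78I against pBABE in each line. Grouping by source name gave 0 in H2122, 1 for the difference and 5 for the mean. Over all 17958 genes it gave 0 higher and 1 lower in H2122, beside 896 and 412 in the reported fit. It gave 112 higher and 63 lower for the difference, beside 292 and 355. For the mean it gave 518 and 356, beside 1482 and 955. That grouping goes against the STK11 levels of H2122 pBABE replicate 2 and K78I replicate 3. Array weights gave 11 in A549 and 8 for the difference. Over all 17958 genes they gave 2051 higher and 1793 lower in A549, beside 985 and 530 in the reported fit. For the difference they gave 843 higher and 863 lower over all genes, beside 292 and 355. Leaving out the dimmest 30% of genes, which removes COL8A1 and COL25A1, gave 2 for the difference. Leaving out 1 array at a time gave 5 to 8 in A549, 6 to 8 in H2122, 3 to 5 for the difference, 9 to 11 for the mean, and 0 to 0 and 0 to 2 for K78I against pBABE in A549 and H2122.

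With groups by source name, COL1A1 in H2122 turned to 0.19 and COL12A1 to -0.55 in H2122 and -0.28 over the mean of both lines, and COL1A1 in H2122 was 0.0399 against K78I alone. Among the other single-gene values 774 kept their direction and their side of the threshold and 72 lost the call. COL1A1, COL5A1, COL4A1, COL4A2 and COL6A1 in A549 were called in all 30 alternatives, and COL27A1, COL4A1, COL4A2, COL8A1 and COL25A1 in H2122 lost the call only under the source names, which ended every H2122 call of the pathway lists too.

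A replicate block gave 6 calls in A549, 7 in H2122, 3 for the difference, 10 for the mean and 0 for each K78I comparison; COL4A3 in A549 (adjusted p = 0.0705) and COL25A1 for the difference lost theirs. The numbers were not taken as pairs, as no pairing is stated. After group means were subtracted, same-numbered arrays correlated at -0.64 to 0.35 in A549 and 0.06 to 0.42 in H2122. Arrays with different numbers correlated at -0.52 to 0.64 in A549 and -0.42 to 0.13 in H2122. Deviations within a group sum to 0, so these ranges are not independent. The 2 H2122 pBABE arrays mirror each other, and K78I replicate 1 correlated at 0.22 with pBABE replicate 1 and at -0.22 with pBABE replicate 2. The higher range of same-numbered arrays in H2122 is therefore only a description. The causes of these shifts were not tested. Dim genes are limited by signal over background: no detection calls were used here.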
